A study of Mus musculus with 18 samples.

Results

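The comparison set 3 cerebellum arrays of mice carrying a human apolipoprotein D (ApoD) transgene against 3 arrays of mice lacking the Apod gene, all injected with saline. These 6 arrays, of 18 in the study, are those of the 2 genotypes whose titles do not name paraquat. They were taken as the saline arrays from the injection protocol. In the labels the first genotype is a gain-of-function mutant, with the transgene said to act in neurons, and the second is a knock-out. The promoter that drives the transgene is not named in the labels. The other arrays came from wild-type mice under saline and from all 3 genotypes after paraquat, a herbicide that generates superoxide, given at 30 mg/kg.

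All mice were adult males of about 80 days, killed 6 h after 1 intraperitoneal injection. Each group had 9 mice, and equal amounts of RNA from 3 mice made each of its 3 pools and arrays. The spread between arrays is thus a spread between pools. The p-values rest on that spread pooled over all 6 groups, which are assumed to vary alike. Values are log2 expression levels from Affymetrix 3' arrays. A difference of 1 is a 2-fold difference, and differences are transgenic minus knock-out unless stated. The wild-type arrays and the arrays after paraquat are used here to place the saline difference.

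ApoD is a small secreted protein of the lipocalin family that binds hydrophobic ligands such as arachidonic acid. In the brain it is made mainly by glia and by cells of the meninges and vessel walls, and it is known to rise with age, injury and oxidative stress. The choroid plexus, an epithelium that makes cerebrospinal fluid, lies in the roof of the ventricle next to the cerebellum and can be taken along with it. In bulk tissue, fewer cells of a type and less RNA per cell cannot be told apart.

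Apod itself was read first, as the check of the labels. Apod stood at 12.25, 12.28 and 12.35 on the 3 transgenic saline arrays and at 8.40, 8.22 and 8.50 on the 3 knock-out saline arrays. Wild-type saline arrays read 12.47, 12.38 and 12.54. The knock-out arrays were thus far below all others, as their label says, at 15.1-fold under the transgenic arrays (difference 3.92, SE 0.14, adjusted p = 1.1e-13). The transgenic arrays were not above wild-type, with a difference of -0.17 and a 95% confidence interval from -0.45 to 0.11 (adjusted p = 0.48). The probe set carries the mouse gene's name, and whether it also reads human ApoD transcripts was not tested. The gain of function in the label was therefore not seen in this probe set.

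Markers of the cerebellum were present on every array. Pcp2 and Calb1, which mark Purkinje neurons, and Gabra6, Zic1 and Cbln1, which mark granule neurons, reached the 40th percentile of their array on all 18 arrays. Neurod6, Tbr1 and Camk2a, which mark forebrain neurons, reached it on 0 of 18. Other markers of neighbouring brain regions did reach it. Of 23 such genes on the array, 13 reached it on at least 3 arrays. In 12 of these 13 the transgenic minus knock-out difference under saline was above 0. Several technical readings differed among the transgenic saline arrays. Array 1 had a high dap spike-in signal of 12.08, against 10.57 to 10.74 on the knock-out arrays. The 18S ribosomal control was 6.94 on array 2 and 6.15 on array 3, against 7.35 to 7.56 on the knock-out arrays. For pyruvate carboxylase, the 3' minus 5' difference was 1.82 on array 3 and 2.74 to 2.88 on the knock-out arrays. Their part in the results was not tested. A further array, knock-out paraquat array 2, had a narrower spread of values (SD 2.06, against 2.20 to 2.28 on the other 17 arrays) and enters the pooled error.

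More genes were lower than higher in the transgenic mice. Of 8320 genes tested, 776 passed an adjusted p of 0.05 (9.33%), with 232 higher (2.79%) and 544 lower (6.54%). Only 3 of the higher genes (Apod, Rph3a and Mt3) and 21 of the lower ones differed by more than 2-fold. Across the genes tested the differences were centred on 0.00 (their median), and the 95% confidence interval of a typical gene reached 0.27 to either side. The values of the 2 groups did not overlap in 3151 genes (37.9%), among them 771 of the 776 called.

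The number of calls moved with single arrays. It was 272, 190 and 286 without knock-out saline arrays 1, 2 and 3, and 1387, 220 and 404 without transgenic saline arrays 1, 2 and 3. Without knock-out paraquat array 2, which adds only to the pooled error, it was 1901. With transgenic arrays 2 and 3 of both treatments left out, 115 genes were called from the remaining transgenic array, which is assumed to vary like the other groups. The predominance of lower calls also moved with the scaling. Higher genes made up 29.9% of calls on the deposited values, 42.8% of 1344 calls after median centring and 45.5% of 1442 calls after quantile normalisation.

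**Figure D1:**
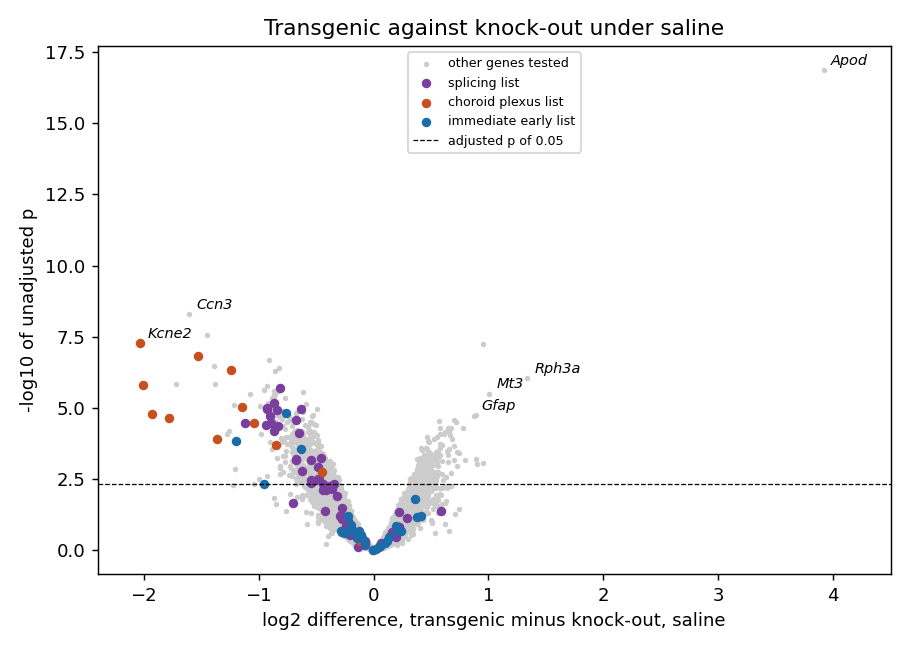
Each point is 1 of 8320 genes. The x axis gives the log2 difference, transgenic minus knock-out, under saline. The y axis gives -log10 of the unadjusted p, and the dashed line marks an adjusted p of 0.05. Coloured points are the members of the choroid plexus, splicing and immediate early lists. Apod stands alone at 3.92. Choroid plexus members range from -2.03 for Kcne2, at the far left, to -0.12 for Ace.

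Genes of the choroid plexus were the largest group at the low end. Of 12 measured members of the choroid plexus list, 11 fell and 0 rose, where 6.54% of all genes fell. Their median difference was -1.30, beside 0.00 for all genes. All 12 members passed the expression filter on the 12 arrays outside this comparison too. The knock-out saline arrays thus did not decide which members were measured. On the array Aqp1, Cldn1 and Trpv4 of the list stayed below the filter. The mean of the 12 members was 6.81, 7.16 and 6.34 on the transgenic arrays and 8.01, 8.16 and 8.01 on the knock-out arrays. On the wild-type saline arrays it was 8.11, 7.98 and 8.23, so that the wild-type and knock-out ranges overlapped and the transgenic arrays lay below both.

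Kcne2, a regulatory subunit of potassium channels in the choroid plexus epithelium, read 5.20, 5.81 and 4.55 on the transgenic arrays. It read 7.13, 7.31 and 7.22 on the knock-out arrays and 7.41, 7.22 and 7.38 on the wild-type arrays. The transgenic values all lay below the others, at 4.09-fold under knock-out (difference -2.03, SE 0.24, adjusted p = 9.7e-05). Sostdc1, a secreted antagonist of BMP and Wnt signals, read 5.76, 5.91 and 5.16 against 7.57, 7.82 and 7.47 in knock-out (difference -2.01, SE 0.30, adjusted p = 8.6e-04). Kl, the co-receptor of the hormone FGF23, read 5.77, 6.11 and 4.64 against 7.27, 7.64 and 7.40 (difference -1.93, SE 0.34, adjusted p = 0.0028). In all 3 genes the groups were apart by more than 1 log2 unit, and array 3 was the lowest.

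Folr1, the receptor that carries folate into cerebrospinal fluid, read 6.08, 6.91 and 5.08 on the transgenic arrays and 7.69, 7.93 and 7.80 on the knock-out arrays (difference -1.78, adjusted p = 0.0031). Ttr, the carrier of thyroid hormone and retinol in cerebrospinal fluid, read 13.60, 13.74 and 11.98 against 14.46, 14.48 and 14.46. Its difference was -1.36 (SE 0.29, adjusted p = 0.0072), and array 3 stood lowest by far. The remaining members that fell were Calml4 (-1.53), F5, coagulation factor V (-1.24), Cldn2, a tight junction protein (-1.14), Slc4a5, a bicarbonate transporter (-1.04), Otx2, a homeobox transcription factor (-0.85), and Igf2 (-0.45). Ace was the exception, at 7.73, 8.03 and 8.27 against 8.19, 8.07 and 8.12, with overlapping values (difference -0.12, adjusted p = 0.71).

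The choroid plexus count stayed at 10 or 11 of 12 whichever single array was left out, and at 10 with transgenic arrays 2 and 3 left out. It was 9 of 11 with the probe sets of a gene averaged, and 3 of 4 when only genes above the 60th percentile were kept. The list mean had an SD of 0.41 on the transgenic and 0.08 on the knock-out saline arrays. With only the arrays compared in the fit, the count was 10 of 12, and Ttr was not called (adjusted p = 0.057). Within the transgenic saline group the list mean followed the order of arrays 2, 1 and 3 from high to low. Array 3 was also the array with the lowest 18S control (6.15) and the lowest pyruvate carboxylase 3' minus 5' difference (1.82), and the part of these in the result was not tested.

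**Figure D2:**
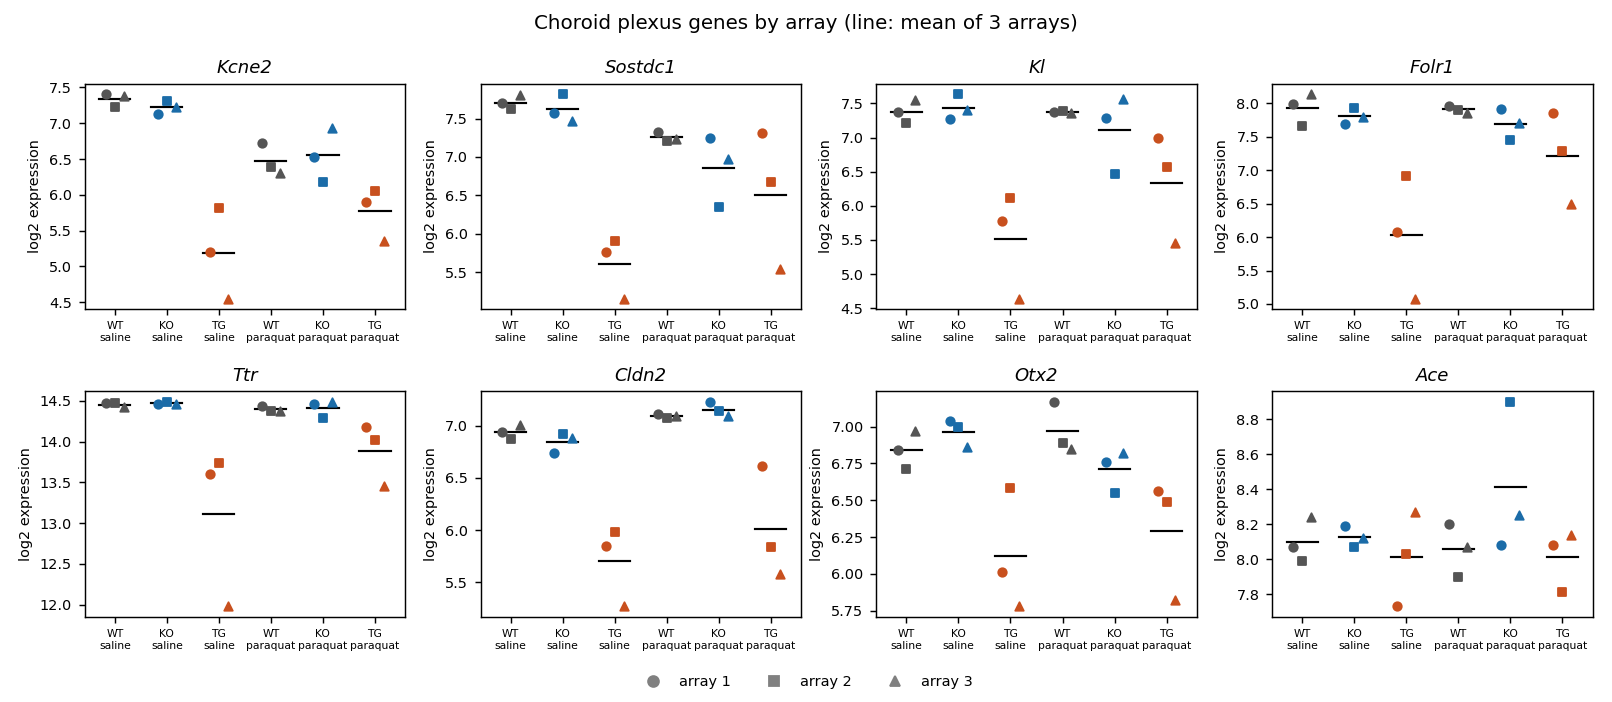
Log2 expression of 8 choroid plexus genes on each of the 18 arrays, by genotype (WT, wild-type; KO, knock-out; TG, transgenic) and treatment. Symbols stand for array numbers, and lines are means of 3 arrays. The transgenic saline arrays lie below the knock-out and wild-type saline arrays in 7 genes, and in Ace the groups overlap.

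Markers of the meninges and of fibroblasts were the next group of non-neural genes to move. Of 20 measured members, 6 fell, where 6.54% of all genes fell, and 1, Apod itself, rose (median -0.22). Lum, a proteoglycan of the extracellular matrix, read 6.06, 5.89 and 6.0 on the transgenic arrays and 6.90, 6.82 and 6.84 on the knock-out arrays (difference -0.87, SE 0.14, adjusted p = 0.0012). Ogn, another matrix proteoglycan, fell by 0.79 on the log2 scale, and Serping1, the inhibitor of complement C1, fell by 0.68. Dcn, the proteoglycan decorin (-0.52), Igfbp2, a binding protein of insulin-like growth factors (-0.55), and Igf2 (-0.45) completed the 6. With 1 array left out, 3 to 7 members were called lower, and the calls of Lum, Ogn and Serping1 held in every alternative that tested them, which for Lum and Ogn leaves out the 60th percentile filter.

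Outside these lists, Ecrg4, a secreted peptide precursor, read 7.81, 8.03 and 6.81 on the transgenic arrays and 9.18, 9.35 and 9.28 on the knock-out arrays (difference -1.72, SE 0.25, adjusted p = 8.6e-04). Ccn3, a secreted matrix-associated protein, read 5.96, 5.82 and 6.39 against 7.57, 7.61 and 7.81 (difference -1.60, SE 0.16, adjusted p = 2.1e-05). Car12, a carbonic anhydrase of the cell surface, read 5.19, 5.46 and 4.82 against 6.30, 6.52 and 6.28 (difference -1.21, adjusted p = 0.002). Ecrg4 and Car12 were lowest on array 3, as the choroid plexus genes were. Ccn3 was highest there, so that its order among arrays differed from theirs.

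Zfp932, a zinc finger protein, read 7.69, 7.56 and 7.50 on the transgenic arrays and 9.0, 9.09 and 9.01 on the knock-out arrays (difference -1.45, SE 0.16, adjusted p = 7.6e-05). Ptpn22, a phosphatase known from lymphocytes, differed by -1.39, and Amy1, an amylase of a multigene family whose copies the array may not separate, by -1.38. Sh3d19, an adaptor with SH3 domains, differed by -1.26, but of its 3 other probe sets only 1 had the same sign. Lyz1, a lysozyme gene with a near-identical neighbour in Lyz2, fell by 0.95, and Lyz2 by 0.53. The split between these 2 lysozyme genes is uncertain.

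Eif2s3y, a translation factor gene on the Y chromosome, read 7.61, 6.89 and 6.24 on the transgenic arrays and 7.99, 8.42 and 8.17 on the knock-out arrays (difference -1.28, SE 0.26, adjusted p = 0.0059). It was the only called gene of 4 in the sex-linked check. Kdm5d (-0.22, adjusted p = 0.65) and Uty (-0.07, adjusted p = 0.80), also Y-linked, did not pass, and their groups overlapped. Of the 4 genes, only Eif2s3y was still tested with the 60th percentile filter. Kdm5d and Uty thus lay lower on the arrays and are a weaker check. The mice are males by their labels. Eif2s3y was not called with transgenic arrays 2 and 3 left out (difference -0.58, adjusted p = 0.36).

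At the high end, Rph3a rose most after Apod. Rph3a encodes rabphilin, an effector of Rab3 on synaptic vesicles. It read 9.88, 9.61 and 9.56 on the transgenic arrays, 8.60, 8.28 and 8.16 on the knock-out arrays and 8.46, 8.18 and 8.39 on the wild-type arrays (2.53-fold, difference 1.34, SE 0.19, adjusted p = 6.2e-04). Mt3, the brain form of metallothionein, which binds zinc and copper, read 11.97, 12.01 and 11.83 against 10.77, 10.94 and 11.07 in knock-out (2.01-fold, difference 1.01, SE 0.16, adjusted p = 0.0011). Gfap, the intermediate filament of astrocytes, read 10.66, 10.48 and 10.83 against 9.86, 9.78 and 9.71 (1.83-fold, difference 0.87, SE 0.16, adjusted p = 0.0028). In all 3 genes the lowest transgenic array was above the highest knock-out array by 0.5 log2 units or more.

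Pisd-ps3, a pseudogene of phosphatidylserine decarboxylase, was higher by 0.95, and its probe set, of the kind named _x_at, may also read related transcripts. Pglyrp1, a peptidoglycan recognition protein, was higher by 0.90, Mcam, a cell adhesion molecule, by 0.78 and Plod1, a collagen lysyl hydroxylase, by 0.72. Rph3a, Mt3 and Pisd-ps3 kept their calls in every alternative run, and Pglyrp1 in all but the 60th percentile filter, which did not test it. With transgenic arrays 2 and 3 left out, the values were 0.88 for Gfap (adjusted p = 0.058), 0.70 for Mcam (adjusted p = 0.089) and 0.70 for Plod1 (adjusted p = 0.057).

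Hoxb5, a homeobox factor of the posterior hindbrain and spinal cord, read 8.42, 7.98 and 8.46 on the transgenic arrays and 7.48, 7.32 and 7.19 on the knock-out arrays (difference 0.95, adjusted p = 0.02). Its adjusted p was 0.075 without knock-out saline array 2, 0.082 without knock-out saline array 3 and 0.068 without transgenic saline array 3. Penk, the enkephalin precursor, was the other called member of 13 markers of neighbouring brain regions (difference 0.55, adjusted p = 0.016). Its adjusted p was 0.074 without knock-out saline array 1, 0.068 without knock-out saline array 2 and 0.066 without transgenic saline array 2. The list had a median of 0.30, 11 of its 13 members did not pass, and with 1 array left out 0 to 5 were higher. Its mean was 7.84 to 7.97 on the transgenic arrays and 7.53 to 7.61 on the knock-out arrays.

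**Figure D3:**
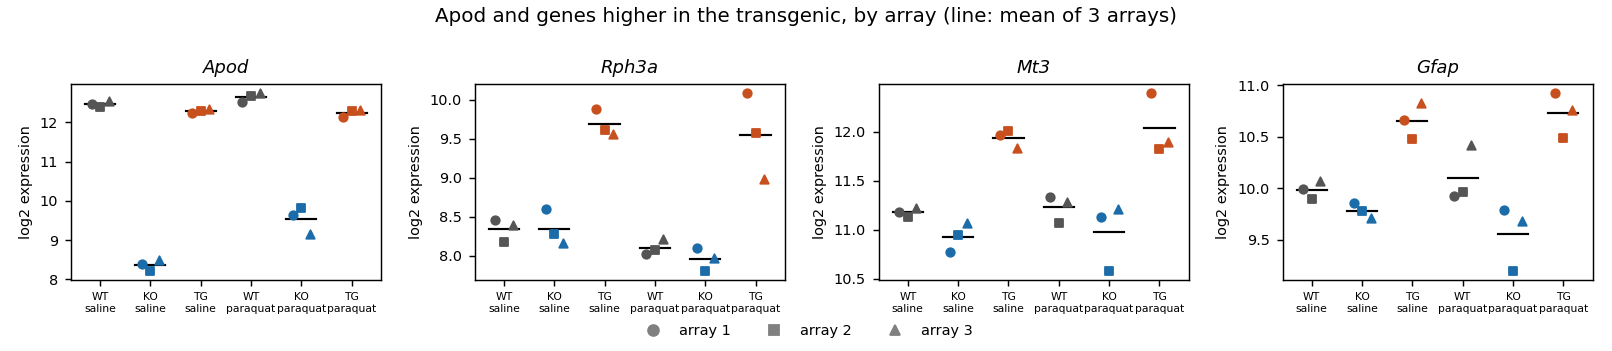
Log2 expression of Apod, Rph3a, Mt3 and Gfap on the 18 arrays, by genotype (WT, KO, TG) and treatment, with array numbers as symbols and lines at the means of 3 arrays. Apod separates knock-out from both other genotypes. Rph3a, Mt3 and Gfap separate transgenic from both others under saline, with means of 1.34, 1.01 and 0.87 above knock-out.

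Among antioxidant enzymes and metal-binding proteins, 4 of 43 measured members rose, where 2.79% of all genes rose, and 0 fell (median 0.10). Between 2 and 5 were higher with 1 array left out. They were Mt3, Mt2 (0.65), a metallothionein found in most tissues, Srxn1, sulfiredoxin, which restores oxidised peroxiredoxins (0.58), and Gpx4, the glutathione peroxidase that reduces lipid hydroperoxides (0.42). Srxn1 read 9.52, 9.26 and 9.26 on the transgenic arrays and 8.65, 8.80 and 8.84 on the knock-out arrays (SE 0.11, adjusted p = 0.0046), and its call held in every alternative run. Mt2 was not called without knock-out saline array 1, knock-out saline array 2 or transgenic saline array 2 (adjusted p = 0.083, 0.1 and 0.13). Gpx4 was not called without any 1 of 5 of the 6 arrays, the exception being transgenic saline array 1, with an adjusted p of up to 0.11.

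For lipid carriers and the proteins around ApoD, 3 of 33 measured members passed, of which Apod was 1, a share near the 9.33% of all genes. Lcat, which esterifies cholesterol on lipoproteins, read 9.46, 9.50 and 9.37 on the transgenic arrays and 8.82, 8.97 and 9.10 on the knock-out arrays (difference 0.48, SE 0.11, adjusted p = 0.013). Abca1, the exporter of cholesterol to apolipoproteins, was lower by 0.42 on the log2 scale (difference -0.42, adjusted p = 0.035). Lcat was not called without knock-out saline array 1, knock-out saline array 2 or transgenic saline array 2 (adjusted p = 0.08, 0.06 and 0.068). Abca1 lost its call without any 1 of 5 of the 6 arrays and when its 3 probe sets, which disagree in sign, were averaged (difference -0.13, adjusted p = 0.6). Of 22 genes of cholesterol synthesis, 1, Mvd, rose (0.37) and 0 fell. Mvd was not called without any 1 of the 6 saline arrays except transgenic saline array 3 (adjusted p = 0.054 to 0.17).

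Near Apod on chromosome 16, 18 of 40 neighbouring genes were measured. Of these, 2 rose and 0 fell, where 2.79% of all genes rose and 6.54% fell. The median difference of the 18 genes was -0.07, and 12 of them were below 0. Pigx, a subunit of GPI-anchor synthesis (0.32, adjusted p = 0.04), and Nrros, a regulator of reactive oxygen species and TGF-beta (0.60, adjusted p = 0.033), were higher in transgenic than in knock-out. Pigx read 8.25, 8.33 and 8.35 on the transgenic arrays, 8.04, 8.0 and 7.93 on the knock-out arrays and 8.42, 8.31 and 8.47 on the wild-type arrays. It thus lay with wild-type in the transgenic mice. Neither call held without knock-out saline arrays 1, 2 or 3 or transgenic saline arrays 2 or 3, with adjusted p of 0.065 to 0.16.

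Genes for splicing and nuclear RNA-binding proteins were the other large group that fell. Of 59 measured members, 25 fell and 0 rose, where 6.54% of all genes fell. Their median difference was -0.38, and the groups did not overlap in 40 of them, where 37.9% of all genes did not overlap. The list mean ran from 9.83 to 10.10 on the transgenic arrays, and was 10.34, 10.37 and 10.32 on the knock-out arrays and 10.35, 10.35 and 10.22 on the wild-type arrays. All transgenic arrays lay below the others, with array 3 the lowest and array 1 the nearest to knock-out.

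Prpf4b, a kinase of the spliceosome, read 8.69, 8.69 and 7.87 on the transgenic arrays and 9.37, 9.68 and 9.55 on the knock-out arrays (difference -1.12, SE 0.21, adjusted p = 0.0035). All 5 of its other probe sets had the same sign. Clk4, a kinase of SR proteins, fell by 0.94, Neat1, the long RNA that builds paraspeckles, by 0.92, and Pnn, a protein of the exon junction, by 0.92. Tardbp, which encodes TDP-43, read 9.46, 9.20 and 8.96 against 10.01, 10.06 and 10.07 (difference -0.84, SE 0.14, adjusted p = 0.0022). Tra2a, with a difference of -0.70, did not pass (adjusted p = 0.12), and Hnrnpab was at 0.59 (adjusted p = 0.17).

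The splicing count rested more on single arrays than the choroid plexus count did. It was 14 to 16 without any 1 of knock-out saline arrays 1, 2 and 3 or transgenic saline arrays 2 and 3, 31 without transgenic saline array 1 and 33 without knock-out paraquat array 2. It was 7 with transgenic arrays 2 and 3 of both treatments left out, the arrays with the low 18S control (6.94 and 6.15 under saline). In that setting Prpf4b had a difference of -0.85 (adjusted p = 0.075) and Tardbp one of -0.59 (adjusted p = 0.094), while Clk4 and Neat1 kept their calls. Whether RNA quality had a part in this list was not tested.

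Immediate early genes, the rapid transcriptional answer to neuronal activity and stress, had 4 lower members and 0 higher of 28 measured (median -0.11), where 6.54% of all genes fell. Between 1 and 5 were lower with 1 array left out. They were Fos, Nr4a1, Nr4a2 and Dusp1, which encode transcription factors and, for Dusp1, a phosphatase of MAP kinases. All 4 are known targets of CREB, which binds the cAMP response element with the core TGACG. The 250 bases before each start site are shown for these 4 called members only. Of the 28 measured members, 11 had a difference above 0, and their windows are not shown. Whether CREB had a part was not tested. They are from RefSeq, GRCm38.p6, written 5' to 3' on the gene's strand, with TGACG and its reverse complement CGTCA in capitals.
Fos (chr12:85473640-85473889, + strand): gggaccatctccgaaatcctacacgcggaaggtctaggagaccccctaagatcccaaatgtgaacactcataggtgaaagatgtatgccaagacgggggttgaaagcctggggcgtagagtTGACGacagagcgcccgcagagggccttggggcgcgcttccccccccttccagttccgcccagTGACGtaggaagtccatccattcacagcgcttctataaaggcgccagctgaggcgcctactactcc
Nr4a1 (chr15:101266596-101266845, + strand): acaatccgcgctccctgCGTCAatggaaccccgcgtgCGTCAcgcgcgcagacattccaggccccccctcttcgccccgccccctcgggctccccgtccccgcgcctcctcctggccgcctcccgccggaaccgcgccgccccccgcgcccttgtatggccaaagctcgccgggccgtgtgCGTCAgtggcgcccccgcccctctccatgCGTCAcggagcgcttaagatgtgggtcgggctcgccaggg
Nr4a2 (chr2:57124004-57124253, - strand): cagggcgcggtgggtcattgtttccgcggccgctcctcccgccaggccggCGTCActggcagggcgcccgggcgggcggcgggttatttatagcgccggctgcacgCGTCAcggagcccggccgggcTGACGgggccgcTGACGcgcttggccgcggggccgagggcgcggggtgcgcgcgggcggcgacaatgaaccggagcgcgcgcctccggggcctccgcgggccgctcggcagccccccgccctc
Dusp1 (chr17:26508473-26508722, - strand): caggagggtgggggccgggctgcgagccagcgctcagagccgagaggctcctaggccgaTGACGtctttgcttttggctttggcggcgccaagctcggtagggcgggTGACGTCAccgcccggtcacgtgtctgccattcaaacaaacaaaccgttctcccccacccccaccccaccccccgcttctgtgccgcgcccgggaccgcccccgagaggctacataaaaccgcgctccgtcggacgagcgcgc

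On either strand the 5 letters occur 2 times in the Fos window, 4 times in Nr4a1, 4 times in Nr4a2 and 3 times in Dusp1, where 1 pair of matches overlaps. Of 32851 promoter windows of this length, 5836 (17.8%) hold them. The motif and the 4 windows were chosen after the values were seen. A match describes the letters and is no evidence of binding.

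Fos read 9.57, 8.52 and 8.98 on the transgenic saline arrays, 10.32, 10.39 and 9.95 on the knock-out arrays and 9.65, 9.72 and 9.45 on the wild-type arrays (transgenic against knock-out -1.20, SE 0.26, adjusted p = 0.0077). Nr4a1 read 8.17, 8.05 and 8.46 against 8.92, 9.27 and 8.78 in knock-out, with wild-type at 8.49, 8.57 and 8.56 (difference -0.76, SE 0.13, adjusted p = 0.0026). In both genes knock-out was highest and no transgenic array reached a knock-out array, while the wild-type mean lay in between. The wild-type mean stood 51.1% of the way from knock-out to transgenic in Fos and 59.4% in Nr4a1.

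Nr4a2 read 7.62, 6.89 and 6.99 against 7.88, 8.58 and 7.92 (difference -0.95, SE 0.30, adjusted p = 0.049), and Dusp1 read 10.08, 9.92 and 9.78 against 10.52, 10.66 and 10.50 (difference -0.64, SE 0.14, adjusted p = 0.011). Neither transgenic nor knock-out differed from wild-type at an adjusted p of 0.05 in any of Fos, Nr4a1, Nr4a2 and Dusp1. The nearest were transgenic Dusp1 (-0.35, adjusted p = 0.14) and Nr4a1 (-0.31, adjusted p = 0.16). Egr1 (0.02), Junb (0.19) and Arc (0.14), other immediate early genes, did not pass. Nr4a1 kept its call in every alternative run. Fos was not called without knock-out saline array 2 (adjusted p = 0.05 after rounding) or transgenic saline array 2 (0.063), nor Dusp1 without knock-out saline array 2 (0.068), and Nr4a2 was not called without any 1 of 5 of the 6 arrays (0.083 to 0.23).

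**Figure D4:**
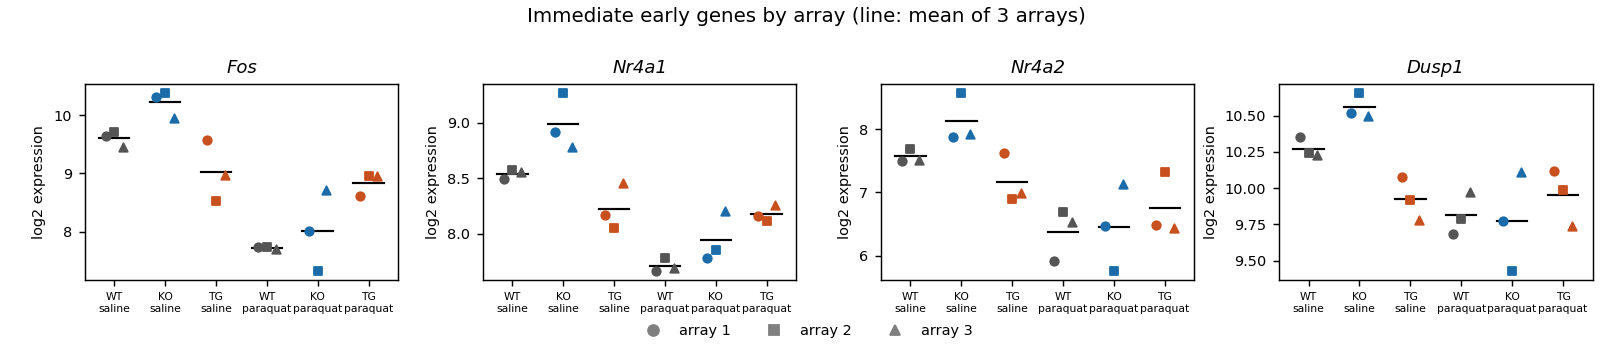
Log2 expression of Fos, Nr4a1, Nr4a2 and Dusp1 on the 18 arrays, by genotype (WT, KO, TG) and treatment, with array numbers as symbols and lines at the means of 3 arrays. Under saline the knock-out arrays are highest and the transgenic arrays lowest on average in all 4 genes. Under paraquat the transgenic mean is above knock-out, by 0.82 in Fos.

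Some markers of the cell types of the cerebellum itself passed the test, where 2.79% of all genes rose and 6.54% fell. Of granule neuron markers 1 of 20 rose (Svop) and 1 fell (Gabra6), and of Purkinje neuron markers 1 of 26 fell (Calb1, difference -0.36, adjusted p = 0.038) and 0 rose. No marker of 11 for interneurons or 7 for oligodendrocyte precursors passed. For astrocytes and Bergmann glia, 2 of 28 rose, Gfap and the glutamate transporter Slc1a2 (0.46, adjusted p = 0.036), and 0 fell. Gabra6, Svop, Calb1 and Slc1a2 are marginal: each lost its call in at least 4 of the 6 single-array omissions.

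Of 20 measured myelin and oligodendrocyte genes, 1 rose (Gsn, 0.60, adjusted p = 0.043) and 0 fell, where 2.79% of all genes rose. The median was 0.31. Between 0 and 8 members were higher with 1 array left out, the most without knock-out paraquat array 2. The list mean was at least 10.99 on transgenic arrays 1 and 2 but 10.64 on array 3, within the knock-out range of 10.63 to 10.67. Olig2 (0.58, adjusted p = 0.084) and Sox10 (0.35, adjusted p = 0.069), transcription factors of the lineage, did not pass, nor did Mbp (0.06). Gsn was not called without any 1 of 5 of the 6 arrays, the exception being transgenic saline array 3 (adjusted p = 0.071 to 0.26), and its difference was 0.39 without transgenic saline array 2.

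Of 19 endothelial markers, 3 fell and 1 rose, where 6.54% of all genes fell and 2.79% rose. They were Abcb1a, the drug efflux pump of the blood-brain barrier (-0.79, adjusted p = 0.0079), Slco1a4, an organic anion transporter (-0.60, adjusted p = 0.0039), and Itm2a (-0.57), with Esam higher (0.42). Abcb1a was not called without transgenic saline array 2 (adjusted p = 0.064), and Itm2a and Esam each lost their call without knock-out saline array 2 (0.063 and 0.051) or transgenic saline array 2 (0.082 and 0.065), Esam also without knock-out saline array 1 (0.07). Of 16 microglia markers 1 fell, Ctss, a lysosomal protease (-0.62, adjusted p = 0.0054), and 0 rose. Of 18 interferon and MHC class I genes 1 fell, Ifit3 (-0.84, adjusted p = 0.0028).

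Synaptic genes had calls each way. Of 27 measured genes of vesicle release, 3 rose (Syn2, Syp and Sv2a) and 3 fell (Pclo, Slc17a6 and Snap25), with a median of 0.14. Of all genes 2.79% rose and 6.54% fell. Syn2, Syp and Slc17a6 each lost their call without knock-out saline array 1, 2 or 3 or transgenic saline array 2 (adjusted p up to 0.2). Pclo, a scaffold of the presynaptic active zone, read 9.23, 8.91 and 8.99 on the transgenic arrays and 9.89, 9.97 and 9.84 on the knock-out arrays (difference -0.86, SE 0.12, adjusted p = 3.8e-04). Its 1 other probe set had the opposite sign, and the mean of both gave -0.40 (adjusted p = 0.13). With 1 array left out, 0 to 6 vesicle genes were higher and 1 to 4 lower. Energy and protein-turnover genes had few calls: 0 higher and 2 lower of 69 for oxidative phosphorylation, 2 and 2 of 37 for the proteasome, 1 and 0 of 44 for the cytosolic ribosome. With 1 array left out, these ran up to 7 higher and 5 lower, 5 higher and 6 lower, and 5 higher and 1 lower.

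Smaller counts came from the remaining lists, to be read beside the 2.79% of all genes that rose and the 6.54% that fell. Of 30 genes of the glucocorticoid response, 2 rose (Mt2 and Nfkbia) and 1 fell (Dusp1), of 32 heat shock genes 2 fell (Dnajb4 and Chordc1), and of 18 circadian genes 2 fell (Per2 and Nr1d2). Of 119 zinc finger genes named Zfp, 3 rose and 10 fell, led by Zfp932. With 1 array left out, lower calls ran from 0 to 2 in the glucocorticoid list and 1 to 6 in the heat shock list. They ran from 0 to 3 in the circadian list and 1 to 29 in the Zfp list. Higher calls ran from 0 to 3, 0 to 4, 0 to 0 and 0 to 9 in these lists. Nfkbia lost its call without knock-out saline array 1, 2 or 3 (adjusted p = 0.11 to 0.15). It also did without transgenic saline array 1 or 2 (0.11 and 0.18). Mt2 and Dusp1 are also counted in the antioxidant and immediate early lists. Haemoglobin genes were not among those tested, and of 2 other erythrocyte markers 0 passed.

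Wild-type lay nearer to knock-out than to transgenic in most called genes. Among the 776 called genes, the wild-type saline mean was nearer to knock-out in 756 and nearer to transgenic in 20. The median position was 12.0% of the way from knock-out to transgenic, with an interquartile range of 0.7% to 24.8%. Transgenic against wild-type gave 529 calls (6.36%) and knock-out against wild-type gave 2 (0.024%). These contrasts share arrays with the main one, so that their values are given side by side only. The position was read only in genes called on these same arrays, not in all genes tested. The 18S control was 6.94 and 6.15 on transgenic saline arrays 2 and 3, against 7.35 to 8.42 on the wild-type saline arrays. An effect of the transgene and an effect of these arrays cannot be told apart here. For Kcne2 the differences from wild-type were -2.15 in transgenic and -0.12 in knock-out, for Rph3a 1.34 and 0.00, and for Prpf4b -1.12 and 0.01. Apod had -0.17 and -4.09, and Fos -0.59 and 0.61.

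The same genotypes after paraquat were measured on 6 other arrays. There 1284 genes were called (15.4%), with 799 higher (9.6%) and 485 lower (5.83%). Of the 776 genes called under saline, 760 had the same sign after paraquat, against 77.2% of all genes. In 425 genes the call was made under both treatments with the same sign (168 higher, 257 lower), which is 54.8% of the saline calls and 33.1% of the paraquat calls. Across the 8320 genes the 2 differences had a Pearson correlation of 0.73 and a Spearman correlation of 0.73, given as a description because genes are not independent replicates. The arrays of a genotype may also share the technical signs. Transgenic paraquat arrays 2 and 3 had 18S controls of 6.33 and 6.20, and array 1 had a dap signal of 12.45. For pyruvate carboxylase, the 3' minus 5' difference was 1.95 on transgenic paraquat array 3 and 1.82 on transgenic saline array 3. The deviations of these 2 arrays from their group means correlated at 0.42. The part of these signs in the shared calls was not tested. The paraquat count was 1052, 1925 and 1446 without knock-out paraquat arrays 1, 2 and 3 and 611, 734 and 1266 without transgenic paraquat arrays 1, 2 and 3. Without knock-out paraquat array 2, lower calls outnumbered higher ones (1356 and 569).

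Rph3a (1.59 after paraquat), Mt3 (1.06), Gfap (1.17), Hoxb5 (1.29), Mapre3, a protein of microtubule ends (0.97), and Mcam (0.82) were, after Apod (2.71), the leading genes called higher under both. Mapre3 lost its saline call without knock-out saline array 1, 2 or 3 or transgenic saline array 2 (adjusted p = 0.074, 0.059, 0.052 and 0.11). Ccn3 (-1.66), Amy1 (-1.61), Zfp932 (-1.21), Cldn2 (-1.14), Ptpn22 (-1.13), Lyz1 (-1.08), Ecrg4 (-1.05) and Prpf4b (-0.999) led those called lower under both. Cldn2 differed by -1.14 under each treatment. All 12 measured choroid plexus genes were below 0 under both treatments. In 11 of them the difference was nearer to 0 after paraquat, for Cldn2 only beyond the digits shown. The median change of the list was 0.62. Kcne2 had -0.78 after paraquat, Sostdc1 -0.35 (adjusted p = 0.45), Kl -0.77 (adjusted p = 0.13), Folr1 -0.48 (adjusted p = 0.32) and Ttr -0.53 (adjusted p = 0.21). Ace had -0.40 (adjusted p = 0.12), further from 0 than under saline.

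After paraquat, 5.83% of all genes were called lower and 9.6% higher, and the list counts stand beside these shares. There 4 of the 12 choroid plexus members were called lower and the list median was -0.51. The list mean was 7.61, 7.35 and 6.81 on the transgenic arrays and 7.98, 7.62 and 7.95 on the knock-out arrays, so that all transgenic arrays lay below knock-out arrays 1 and 3, and array 1 lay next to knock-out array 2, the array with the narrow spread. For no member did the difference between the treatments pass the test. Kcne2 changed by 1.25 between treatments (SE 0.34, adjusted p = 0.4). Splicing genes after paraquat gave 16 lower and 4 higher of 59 (median -0.24), with 0 members called for the difference between treatments. Their list mean was 9.94, 10.10 and 9.91 on the transgenic arrays and 10.25, 9.86 and 10.31 on the knock-out arrays. Knock-out array 2 was thus the lowest, and the list was not recounted after paraquat without it. Glucocorticoid response genes, of which 1 fell under saline, had 15 of 30 lower after paraquat (median -0.47).

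**Figure D5:**
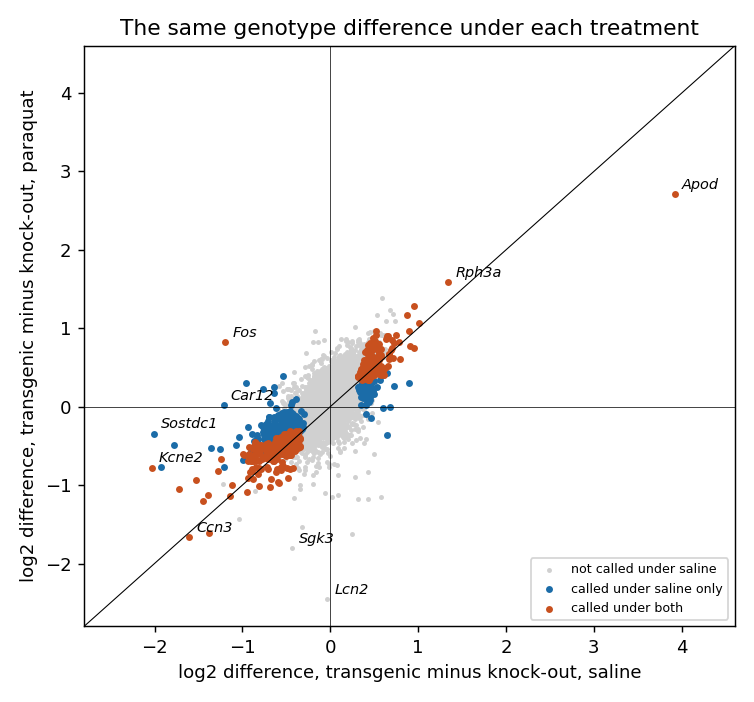
Each point is 1 of 8320 genes. The x axis gives the log2 difference, transgenic minus knock-out, under saline, and the y axis the same difference after paraquat, measured on other arrays. The diagonal marks equal differences. Apod (3.92 and 2.71) and Rph3a (1.34 and 1.59) lie in the upper right, Ccn3 (-1.60 and -1.66) lies near the diagonal, and Fos (-1.20 and 0.82) lies on the opposite side of 0.

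The difference between transgenic and knock-out itself differed between treatments in 4 genes (0.0481% of those tested, 337 at an unadjusted p under 0.05). Fos changed sign, from -1.20 under saline to 0.82 after paraquat (difference of differences 2.02, SE 0.36, adjusted p = 0.041). After paraquat it read 8.62, 8.95 and 8.95 on the transgenic arrays, 8.01, 7.33 and 8.72 on the knock-out arrays and 7.74, 7.73 and 7.70 on the wild-type arrays. It was the only gene called under both treatments with opposite signs. Lcn2, a lipocalin of the acute phase, did not differ under saline beyond its spread (-0.03, adjusted p = 0.94) and read 4.85, 4.69 and 4.13 on the transgenic against 6.61, 6.98 and 7.46 on the knock-out arrays after paraquat.

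Sgk3, a kinase of the SGK family, changed by -1.37 between treatments (adjusted p = 0.037). Apod changed by -1.21 (adjusted p = 0.016), since its probe set read 9.63, 9.83 and 9.16 on the knock-out paraquat arrays against 8.40, 8.22 and 8.50 on the knock-out saline arrays. Lcn2 held its call without any 1 of the 12 arrays in the contrast. The other calls depended on single arrays. Without knock-out saline array 1 the adjusted p was 0.057 for Apod, 0.15 for Fos and 0.14 for Sgk3. Without knock-out saline array 2 it was 0.098, 0.19 and 0.16, without transgenic saline array 2 it was 0.058, 0.14 and 0.077, and without knock-out paraquat array 1 it was 0.076, 0.14 and 0.14. Without knock-out paraquat array 2, the array with the narrow spread, Fos had 1.68 (adjusted p = 0.066). Fos was also not called without transgenic saline array 3 (0.059), transgenic paraquat array 2 (0.081) or 3 (0.075), nor with a replicate block (0.054), nor Sgk3 without knock-out saline array 3 (0.057), transgenic saline array 1 (0.075) or transgenic paraquat array 2 (0.077).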

How the data were processed

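RNA was hybridised to 18 Affymetrix mouse arrays. The deposited log2 values, made by the authors with RMA per the submitters' processing notes (no version given), were used unchanged. Of 22690 probe sets, 20380 had 1 gene symbol in the platform annotation, which can be old. The probe set with the highest mean stood for each of 12393 genes, and 8320 genes that reached the 40th percentile of their array on at least 3 arrays were tested.

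All 18 arrays were fitted with 6 group means in limma 3.58.1 (R 4.3.3, lmFit and eBayes). Every adjusted p is limma's, two-sided, with Benjamini-Hochberg adjustment over all genes tested, and calls are at 0.05. The script was tested on simulated data. Precision is limited by the number of arrays. The rule for naming genes took Apod, the 15 leading calls each way without overlap, up to 4 calls per list (or 2 by smallest p), leading genes shared with or differing from paraquat, called neighbours of Apod, and leading genes by wild-type position. Further list members, such as Ace, Tra2a, Egr1, Olig2, Kdm5d and Uty, were picked after their values were seen. The members and lists were chosen with earlier results of these data known. Scaling, filter, probe set, and arrays fitted were varied, and each knock-out and transgenic array of a comparison, and knock-out paraquat array 2, was left out in turn; wild-type arrays were not.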

Additional observations from a re-analysis of the deposited data

Results flagged for a closer look

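The transgenic minus knock-out difference under paraquat, less that under saline, differed by limma's test in 4 genes: Apod (-1.21), Fos (2.02), Lcn2 (-2.43) and Sgk3 (-1.37). Calls of Apod, Fos and Sgk3 were lost when single arrays were left out, as given in the report.

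Control probe sets outside the expression measurement were high on transgenic saline array 1. The dap spike-in read 12.08, the lys spike-in 9.20 and the phe spike-in 10.07, against at most 10.81, 7.46 and 8.74 on the wild-type saline arrays. Transgenic paraquat array 1 was high too, with dap at 12.45. Their part in any result was not tested.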

How the results depend on the processing

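The saline count of 776 calls became 4155 with array weights, 1344 with median centring, 1980 with only the 9 saline arrays, 1442 with quantile normalisation, 1510 with transgenic arrays 1 of both treatments left out and 115 with transgenic arrays 2 and 3 left out, the last 2 settings being added after the data were seen. Leaving out 1 array gave 190 to 1901. The paraquat count of 1284 became 4612 with array weights, 272 with only the 9 paraquat arrays, 52 with only the arrays compared, 2065 with quantile normalisation and 795 with transgenic arrays 1 left out, and 611 to 1925 with 1 array left out. The 4 calls of the difference between treatments became 7 with a 60th percentile filter, 839 with array weights, 8 with averaged probe sets, 12 with median centring, 2 without a filter, 1 with only the arrays compared, 2 with quantile normalisation, 8 with transgenic arrays 1 left out and 2 with transgenic arrays 2 and 3 left out, and 1 to 12 with 1 array left out. The cause was not tested. Same-numbered knock-out and transgenic saline arrays were not paired (their deviations correlated at -0.05, -0.14 and 0.26). Unlike-numbered arrays of these groups ran from -0.264 to 0.309. Nor were knock-out arrays paired across treatments (-0.09, -0.28 and -0.12). Same-numbered transgenic arrays across treatments correlated at 0.16, 0.13 and 0.42. Of unlike-numbered ones, saline 1 with paraquat 2 gave 0.161 and saline 2 with paraquat 1 gave 0.135. The other unlike-numbered transgenic pairs ran from -0.265 to -0.219. A replicate block gave 769, 1318 and 3 calls. Of 97 called named genes, 28 kept their call in every one of the 20 settings that tested them, 16 of them in all 20. Signs reversed for Lcn2, to 0.14 with array weights, 0.043 with transgenic arrays 1 left out, 0.01 without knock-out saline array 1 and 0.043 without transgenic saline array 1, and, with the probe set of largest interquartile range, for Rgs5 (0.12) and Slc32a1 (-0.10).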
